A study of Mus musculus with 9 samples.

Results

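The Toll-like receptors described here are the 10 mouse family members Tlr1, Tlr2, Tlr4, Tlr6, Tlr7, Tlr8, Tlr9, Tlr11, Tlr12 and Tlr13, taken by gene symbol out of 45535 named rows of the deposited table. Tlr3 was left out by that choice. The study took CD103+ dendritic cells (DCs), pulled from digested lungs on magnetic beads, and asked what a period in culture does to their RNA. All samples came from C57/BL6j mice after 7 days of bleomycin, a drug that injures the lung and is used to model fibrosis, and the age of the mice is not given in the sources used here. The group before culture (5 samples) was lysed directly, and the group after culture (4 samples) was kept for 18 h in RPMI medium with serum and antibiotics. No lung without bleomycin is used here, and it is not stated whether mice were pooled for a sample or shared between the groups, so the p-values measure only the spread between these samples, which may be technical.

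Toll-like receptors are membrane proteins that bind parts of microbes and pass the signal on through a cytoplasmic TIR domain. Tlr1, Tlr2, Tlr4 and Tlr6 act mainly at the cell surface, where Tlr2 pairs with Tlr1 or Tlr6 to bind lipoproteins and Tlr4 binds lipopolysaccharide with its partner Ly96 (MD-2). Tlr7, Tlr8, Tlr9, Tlr11, Tlr12 and Tlr13 act in endosomes and depend on the chaperone Unc93b1. There Tlr7 and Tlr8 recognise RNA and its breakdown products, Tlr13 bacterial ribosomal RNA, Tlr9 unmethylated CpG DNA, and Tlr11 together with Tlr12 the profilin of Toxoplasma. In the mouse, Tlr11 and Tlr12 are known for their part in the response of type 1 conventional dendritic cells (cDC1), the cells that carry CD103 in the lung, to that parasite.

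All 10 receptors changed in level between the groups. Tlr1, Tlr4, Tlr6, Tlr7, Tlr8 and Tlr13 were 2.15-fold to 3.76-fold higher after culture, and Tlr2, Tlr9, Tlr11 and Tlr12 were 1.99-fold to 6.74-fold lower. The level used is the normalized read count, a gene's reads divided by a scaling factor for each sample, and a fold is the ratio of the group means. The test was limma on log2(normalized count + 1) over 18202 named genes with a mean of at least 10, and a gene was called at a Benjamini-Hochberg adjusted p under 0.05. Calls were common in this comparison. Of all tested genes 68.8% were called, 34.2% higher and 34.6% lower after culture, and the groups did not overlap for 57.3%, so the 10 calls of 10 and the 10 pairs of groups without overlap are read against those shares. Called changes of at least 1 on the log2 scale were found in 32.7% of tested genes and in 9 of the 10 receptors, and the median size of the log2 fold change was 1.45 for the receptors and 0.635 for all tested genes. Every receptor passed the minimum level in both groups, the lowest group mean being that of Tlr12 after culture, and reads of a receptor in a single sample ran from 104 to 9874. The exact two-sided permutation test over all splits into 5 and 4 samples gave p = 0.0159 for each receptor, the smallest value this design allows.

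Depth in named genes was 14.7 to 35.3 M reads per sample. The cells held the markers of their label before culture, and the summed level of 9 cDC1 genes was 138971 to 167224 before and 29685 to 33010.3 after culture, with 7 lower (Itgae, the gene of CD103, among them) and 2 higher. All 7 genes of mature dendritic cells were higher after culture. Among all tested genes 34.2% were higher and 34.6% lower. Reads of other cell types were present in both groups, and no list of their markers was at 0. In such bulk samples, fewer cells of a type and less RNA per cell cannot be told apart, and this holds for every receptor below.

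Promoter sequence is shown for the 4 receptors in whose window one of the searched motifs was found, since some receptors moved together and others the opposite way. The windows run from 250 bases before to 50 bases after a RefSeq start site in GRCm38.p6, 5′ to 3′ on the gene's strand, with matches in capitals. Windows were listed for 8 of the 10 receptors, Tlr1, Tlr2, Tlr6, Tlr8, Tlr9, Tlr11, Tlr12 and Tlr13, with 2 windows each for Tlr1 and Tlr6.
Tlr1 at chr5:64933509-64933808, minus strand, higher after culture: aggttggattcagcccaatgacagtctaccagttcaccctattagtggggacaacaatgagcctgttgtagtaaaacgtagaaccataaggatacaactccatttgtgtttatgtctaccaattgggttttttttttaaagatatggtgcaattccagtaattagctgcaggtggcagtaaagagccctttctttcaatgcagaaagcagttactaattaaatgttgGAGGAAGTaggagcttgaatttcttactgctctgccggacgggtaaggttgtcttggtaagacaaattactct
Tlr6 at chr5:64959117-64959416, minus strand, higher after culture: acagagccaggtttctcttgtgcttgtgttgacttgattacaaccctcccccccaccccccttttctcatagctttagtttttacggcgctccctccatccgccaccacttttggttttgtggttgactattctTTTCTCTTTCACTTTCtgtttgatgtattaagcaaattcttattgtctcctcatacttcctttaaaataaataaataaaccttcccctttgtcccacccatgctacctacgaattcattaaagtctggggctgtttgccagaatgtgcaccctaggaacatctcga
Tlr9 at chr9:106222348-106222647, plus strand, lower after culture: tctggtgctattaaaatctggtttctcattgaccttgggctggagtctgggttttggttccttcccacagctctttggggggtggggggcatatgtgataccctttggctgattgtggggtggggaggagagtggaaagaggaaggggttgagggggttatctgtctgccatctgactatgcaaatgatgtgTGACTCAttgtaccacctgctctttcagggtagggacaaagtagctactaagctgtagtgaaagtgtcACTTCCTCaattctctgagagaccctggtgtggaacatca
Tlr11 at chr14:50357664-50357963, plus strand, lower after culture: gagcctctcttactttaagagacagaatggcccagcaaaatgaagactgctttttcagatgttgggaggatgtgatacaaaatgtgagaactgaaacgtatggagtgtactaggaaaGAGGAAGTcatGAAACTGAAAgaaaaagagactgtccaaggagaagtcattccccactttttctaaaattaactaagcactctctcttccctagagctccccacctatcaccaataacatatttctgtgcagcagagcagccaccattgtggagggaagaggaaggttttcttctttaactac
The search used both strands and 4 motifs, each spelled out here. GAGGAAGT, bound by PU.1, a factor of myeloid and dendritic cells, stood in the windows of Tlr1 and Tlr11 and, on the other strand, in that of Tlr9, and it is in 3.2% of all 32851 promoter windows. The core of an interferon response element, GAAA and GAAA with any 2 bases between them, stood in the window of Tlr11 and, as 2 overlapping matches on the other strand, in the first window of Tlr6 (all windows 3.44%). The AP-1 motif TGANTCA stood in the Tlr9 window, 58 bases before the start site (all windows 7.81%), and the NF-kB motif, GGG and TTTCC with any 2 bases between them, in none of the windows of the receptors (all windows 1.63%). In the Tlr11 window the PU.1 and interferon motifs lie close together, beginning 133 and 122 bases before the start site. The Tlr1 match begins 23 bases before its start, and the Tlr9 match 10 bases after it. The PU.1 motif was thus found with a receptor that rose (Tlr1) and with 2 that fell (Tlr9 and Tlr11). A match of letters is a description and not evidence of binding.

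**Figure D1:**
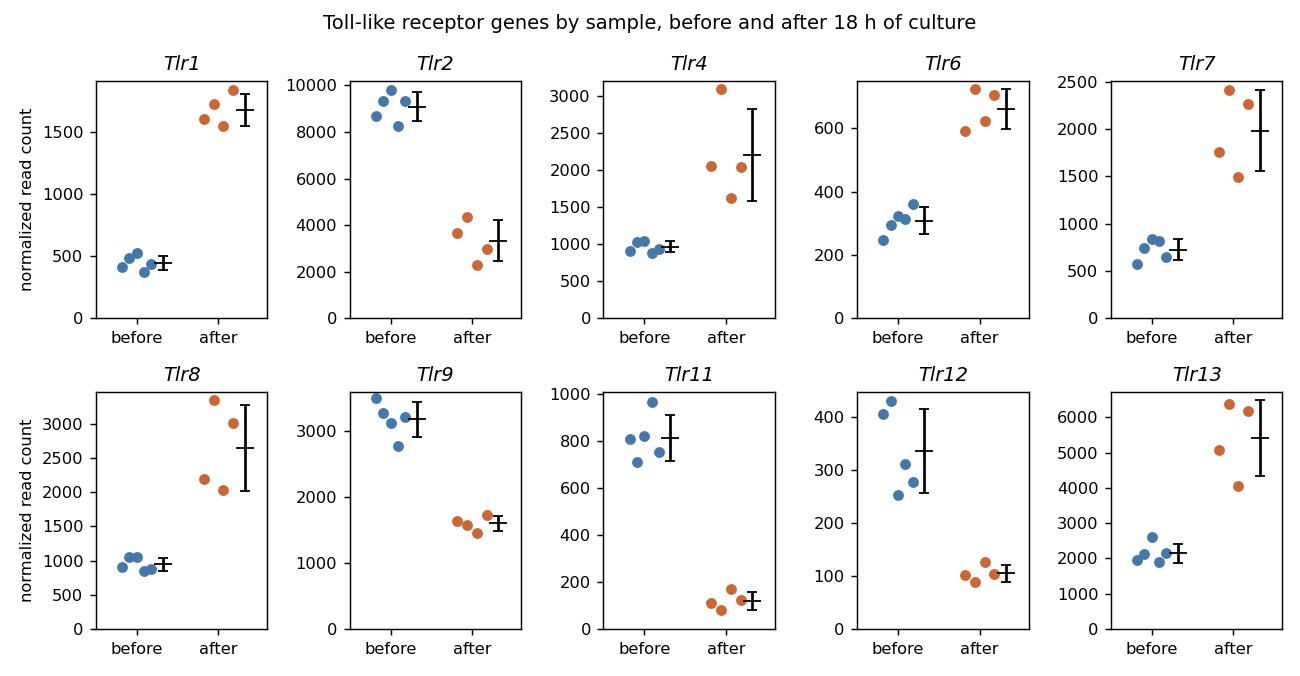
Normalized read count of each receptor gene (y axis, linear from 0) in every sample, 5 before (blue) and 4 after culture (orange). The black mark is the group mean and its bar 1 SD. The groups do not overlap in any panel, with Tlr1, Tlr4, Tlr6, Tlr7, Tlr8 and Tlr13 higher and Tlr2, Tlr9, Tlr11 and Tlr12 lower after culture.

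At the cell surface, Tlr2 fell while both of its partners rose. In replicates 1 to 5 before culture Tlr2 stood at 8688, 9342, 9812, 8264 and 9328 normalized counts, and in replicates 1 to 4 after culture at 3661, 4340.4, 2289 and 2982. Each cultured sample was thus below each uncultured one, and replicate 3 was the lowest after culture. The means were 9087 ± 609 (SD, n = 5) before and 3318 ± 882 (SD, n = 4) after culture, 2.74-fold lower (log2 fold change −1.49, SE 0.14, limma adjusted p = 7.92e-07).

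Tlr1, which joins Tlr2 to bind triacylated lipoproteins, had the largest rise among the 10. Its normalized counts were 411, 486, 524, 375 and 433 before and 1603, 1723, 1549 and 1838 after culture. The lowest cultured sample was therefore well above the highest uncultured one, and spread among cultured samples was small. Means were 446 ± 59.4 (SD, n = 5) before and 1678 ± 129 (SD, n = 4) after culture, 3.76-fold higher (log2 fold change 1.92, SE 0.10, limma adjusted p = 2.27e-09).

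Tlr6, which joins Tlr2 to bind diacylated lipoproteins, was the least abundant receptor before culture on the length-scaled level given below. Its counts were 249, 293, 324, 315 and 362 before and 593, 724, 624 and 706 after culture, again without overlap. It was 2.15-fold higher (log2 fold change 1.10, SE 0.12, limma adjusted p = 1.63e-06). Tlr1 and Tlr6 are close relatives, and 15.3% of the 50-base windows of the longest Tlr1 transcript also occur in other genes, foremost Tlr6, as do 12.6% of those of Tlr6, foremost in Tlr1. How reads that fit both were counted is not given in the sources used here, so the split between these 2 genes is uncertain in part, while no such window was shared for the other 8 receptors.

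Tlr4, the lipopolysaccharide receptor, rose as well. Before culture its counts lay close together at 914, 1036, 1044, 878 and 939.7, and after culture they were 2058, 3094, 1628 and 2039. Replicate 2 after culture stood above the other 3 cultured samples, and all 4 were above every uncultured sample. The group means were 962 ± 74.3 (SD, n = 5) before and 2205 ± 625 (SD, n = 4) after culture, 2.29-fold higher (log2 fold change 1.16, SE 0.14, limma adjusted p = 8.54e-06).

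Among the endosomal receptors of this set, those of RNA rose and those of DNA and of profilin fell. Tlr13, the receptor of bacterial ribosomal RNA, went from 1953, 2111, 2601, 1887 and 2144 normalized counts before to 5069, 6378, 4058 and 6172 after culture. Replicates 2 and 4 were the highest cultured samples and replicate 3 the lowest, which still exceeded every uncultured sample. With means of 2139 ± 279 (SD, n = 5) before and 5419 ± 1074 (SD, n = 4) after culture, it was 2.53-fold higher (log2 fold change 1.33, SE 0.13, limma adjusted p = 9.03e-07).

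Tlr8 showed the same order of cultured samples. Counts were 902, 1046, 1050.1, 850.4 and 882 before and 2191, 3346, 2038 and 3012 after culture, which is 2.8-fold higher (log2 fold change 1.46, SE 0.14, limma adjusted p = 5.82e-07). Tlr7, the neighbour of Tlr8 on the X chromosome and a receptor of single-stranded RNA, had counts of 574, 745, 839, 817 and 644 before and 1759.5, 2417, 1498 and 2269 after culture. It was 2.74-fold higher (log2 fold change 1.44, SE 0.15, limma adjusted p = 1.38e-06), and for neither gene did the groups overlap.

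Tlr9, the receptor of CpG DNA, had the smallest change of the 10. Its counts were 3501, 3282, 3132, 2776 and 3224 before and 1643, 1584, 1451 and 1733 after culture. Samples within each group lay close together, so that the change of −0.99 on the log2 scale was large against its error (1.99-fold lower, SE 0.08, limma adjusted p = 1.5e-07). After a correction of each sample for its trend over GC content and transcript length, the log2 fold change of Tlr9 was −0.46 (limma adjusted p = 5.62e-05), and that of Tlr4 0.75 (0.00225). The same correction took Tlr12 from −1.64 to −1.14, Tlr8 from 1.46 to 1.06 and Tlr7 from 1.44 to 1.10, while the fall of Tlr11 grew to −2.90. It also moved the median of all tested genes by 0.12, and all 10 receptors kept their direction and their call.

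Tlr11, a profilin receptor, had the largest fall. Its counts were 809, 709, 822, 966 and 755 before and 109, 78.8, 171 and 124 after culture, so the highest cultured sample held less than any uncultured one by a wide margin. Means were 812 ± 97.0 (SD, n = 5) before and 121 ± 38.5 (SD, n = 4) after culture, 6.74-fold lower (log2 fold change −2.79, SE 0.18, limma adjusted p = 1.3e-08). Replicate 3, the lowest cultured sample for Tlr2, Tlr4, Tlr7, Tlr8 and Tlr13, was the highest for Tlr11 and for its partner Tlr12.

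Tlr12 was the least abundant receptor after culture on the length-scaled level. It went from 407, 431, 252, 311 and 277 normalized counts before to 102, 87.9, 126.5 and 104 after culture, with no overlap. It was 3.19-fold lower (log2 fold change −1.64, SE 0.17, limma adjusted p = 1.74e-06). For context, the 2 family members outside this set were also lower after culture. Tlr3, a receptor of double-stranded RNA that is typical of cDC1, was 10.1-fold lower (log2 fold change −3.36, limma adjusted p = 3.65e-10), and Tlr5, the flagellin receptor, 1.94-fold lower with overlapping groups (limma adjusted p = 0.00145).

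**Figure D2:**
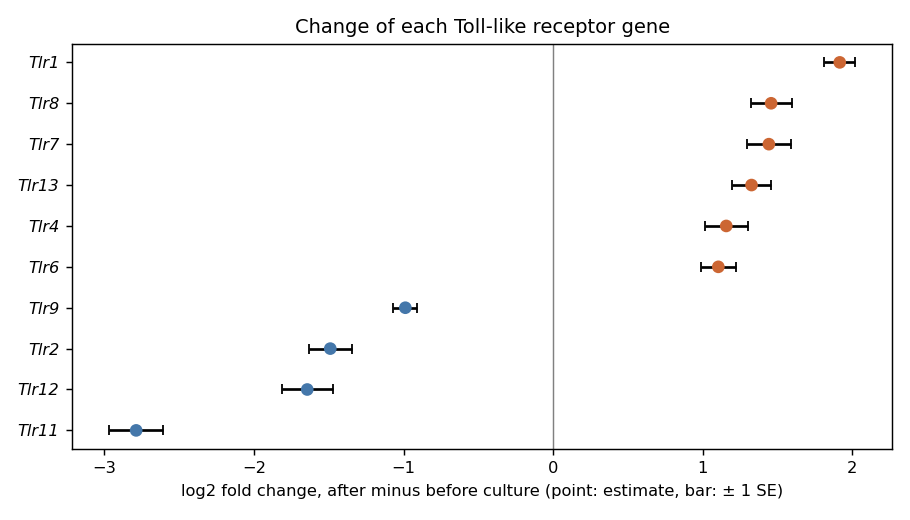
Log2 fold change of each receptor gene, after minus before culture, on the log2(normalized count + 1) scale, with a bar of 1 SE either side from limma. Of the 10 points 6 lie to the right of 0, from 1.10 (Tlr6) to 1.92 (Tlr1), and 4 to the left, from −0.99 (Tlr9) to −2.79 (Tlr11).

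To set the receptors against each other, counts were divided by the length of each gene's exons in kilobases, from 3014 bases for Tlr2 to 5556 bases for Tlr4 in GENCODE M21. The longest transcript of Tlr4 has only 4077 bases, so its place in the orders below depends on the length used. On this length-scaled level Tlr2 led before culture with 3015 ± 202 normalized counts per kb (SD, n = 5), followed by Tlr9 with 915 ± 76.1 and Tlr13 with 497 ± 64.9. The ranges of these 3 did not overlap. Tlr8 and Tlr11 came next with overlapping ranges (264 ± 26.4 and 248 ± 29.6), then Tlr7 and Tlr4, which overlapped too (177 ± 27.7 and 173 ± 13.4). Tlr1, Tlr12 and Tlr6 were the lowest, each overlapping its neighbour in this order (133 ± 17.8, 106 ± 24.9 and 82.8 ± 11.2).

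After culture the order was different. Tlr13 (1259 ± 249.5 normalized counts per kb, SD, n = 4), Tlr2 (1101 ± 293) and Tlr8 (738 ± 176) were the highest, each overlapping the next. Tlr1, Tlr7, Tlr9 and Tlr4 followed with ranges that overlapped one another, from 502 ± 38.6 for Tlr1 to 397 ± 113 for Tlr4. Tlr6 stood apart below them at 178 ± 17.0, and Tlr11 and Tlr12 were the lowest with overlapping ranges (36.8 ± 11.8 and 33.1 ± 5.01).

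The sum over the 10 receptors differed little between the groups against its spread. It was 5611 ± 322 normalized counts per kb before (SD, n = 5) and 5191 ± 904 (SD, n = 4) after culture. Single samples before culture ran from 5163 to 6021 and lay within the span of the cultured ones, 4070.2 to 6221. What differed was the make-up. Tlr2 took 53.7 ± 0.839% of the sum before and 21.1 ± 3.19% after culture, and Tlr9 16.3 ± 1.33% and 9.03 ± 1.24% (SD). Tlr7, Tlr8 and Tlr13 together took 16.7 ± 1.08% before and 47.6 ± 3.01% after culture, while Tlr11 and Tlr12 together took 6.34 ± 0.889% and 1.42 ± 0.601%. The 6 endosomal receptors held 39.4 ± 1.05% of the sum before and 58.1 ± 2.86% after culture, and the groups did not overlap.

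Ratios between receptors that work together or on related ligands moved with this. The length-scaled level of Tlr2 was 22.8 ± 1.63 times that of Tlr1 before culture (SD, n = 5) and 2.19 ± 0.559 times after it (SD, n = 4). The ratio of Tlr2 to Tlr6 was 36.9 ± 4.77 before and 6.20 ± 1.56 after culture. Tlr2 thus remained the most abundant of the 3 partners in both groups, by a smaller margin after culture. For the nucleic acid receptors, the ratio of Tlr7 to Tlr9 was 0.196 ± 0.0443 before and 1.05 ± 0.196 after culture. These ratios are given as values with no test.

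**Figure D3:**
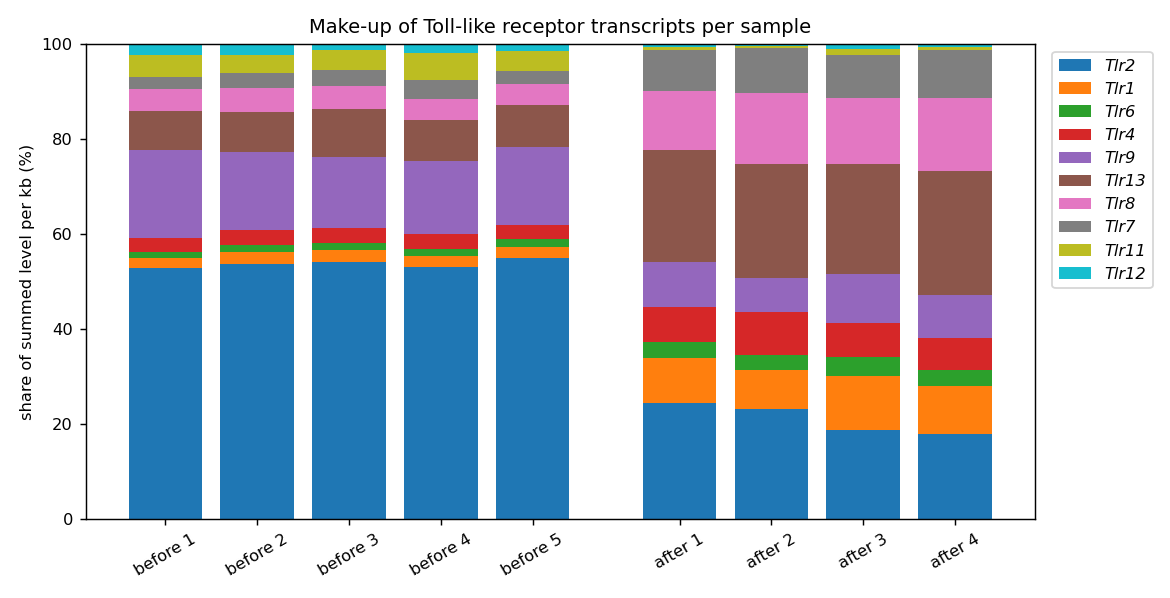
Share of each receptor gene (stacked colours) in the summed length-scaled level of the 10 receptors, in percent, for each of the 9 samples. Tlr2 takes 53.7% on average in the 5 samples before culture and 21.1% in the 4 after culture, and Tlr13 8.83% and 24.2%.

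Receptors that lie side by side in the genome moved the same way. In GENCODE M21 on GRCm38, Tlr1 (chr5:64924679-64933563) and Tlr6 (chr5:64952031-64960097) are 18.5 kb apart on the same strand, and Tlr8 (chrX:167242696-167264329) and Tlr7 (chrX:167304929-167330558) are 40.6 kb apart. The coding genes flanking these pairs, looked up after the values were seen, had smaller changes, with log2 fold changes of −0.50 for Klf3 and 0.42 for Fam114a1 beside the first pair and of 0.39 for Tmsb4x and −0.36 for Prps2 beside the second, and the difference from the receptors was not tested. Tlr13 (chrX:106143204-106160493) is on the X chromosome as well. Tlr2 (chr3:83836272-83841767), Tlr4 (chr4:66827584-66930284), Tlr9 (chr9:106222598-106226883), Tlr11 (chr14:50357914-50363663) and Tlr12 (chr4:128615443-128618619) stand alone, and of these Tlr4 and Tlr12 share chromosome 4 and moved in opposite directions. Since 3 receptors are X-linked, the sex of the samples was looked up. Ddx3y, a Y-linked gene, was read at 1898 to 2691 normalized counts in all 9 samples, and Xist, the RNA of the inactive X chromosome, at no more than 5.86, so both groups held male cells.

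Several receptors had their highest and lowest levels in the same samples, and others did not. After culture, replicate 2 was the highest of the 4 samples for Tlr2, Tlr4, Tlr6, Tlr7, Tlr8 and Tlr13, and replicate 3 the lowest for Tlr1, Tlr2, Tlr4, Tlr7, Tlr8, Tlr9 and Tlr13. Before culture, replicate 3 was the highest for Tlr1, Tlr2, Tlr4, Tlr7, Tlr8 and Tlr13, and replicate 4 the lowest for Tlr1, Tlr2, Tlr4, Tlr8, Tlr9 and Tlr13. Tlr11 and Tlr12 had the opposite extremes after culture, lowest in replicate 2 and highest in replicate 3, and before culture Tlr11 was highest in replicate 4 and Tlr12 lowest in replicate 3. Tlr6 and Tlr7 were lowest in replicate 1 before culture, and Tlr6 was lowest in replicate 1 after it. Markers of monocytes and interstitial macrophages, cells that carry many of these receptors, had their highest and lowest sums in replicates 3 and 4 before and in replicates 2 and 3 after culture. The summed level of these 10 markers was 51984, 57306, 61493, 33604 and 50399 normalized counts in replicates 1 to 5 before culture and 31376, 45711, 20356 and 34388 in replicates 1 to 4 after culture. This order was not particular to macrophages. Neutrophil markers and those of type 2 conventional dendritic cells had their highest and lowest sums in the same samples. Epithelial markers were instead highest in replicate 4 before and in replicate 3 after culture. The library names number the cultured samples otherwise. By library number the highest macrophage sum was in sample 3 and the lowest in sample 4 in both groups, as were the extremes of Tlr2, Tlr4, Tlr8 and Tlr13. It is not stated whether library numbers mark pairs.

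Of the 10 genes of the monocyte and interstitial macrophage list 0 rose, 5 fell and 5 were not called after culture. Of all tested genes 34.2% were higher and 34.6% lower. The median log2 fold change of the list was −1.08, against 0.0065 for all tested genes, and no gene of the list was at 0. Among those not called were Csf1r, the receptor that macrophages need to survive (11801 ± 2414 before against 14883 ± 3908 after culture), and Adgre1, which encodes F4/80 (3236 ± 706 before against 4449.7 ± 1344 after culture). The part of these cells in the receptor levels was not tested. Without replicate 2 after culture the log2 fold changes were 0.98 for Tlr4, 1.34 for Tlr7, 1.33 for Tlr8 and 1.24 for Tlr13, all still called. Without replicate 3 after culture they were 1.29, 1.57, 1.57 and 1.46 in the same order.

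Other cell types also left reads. The marker counts below are read against the 34.2% of all tested genes that were higher and the 34.6% that were lower. Neutrophils express Tlr2 and Tlr4, and all 7 of their markers fell, from a sum of 14291 to 25004 before to 932 to 1902 normalized counts after culture. Plasmacytoid dendritic cells, known for Tlr7 and Tlr9, had 3 of 5 tested markers lower and 0 higher, with sums of 4935 to 5519 before and 2517 to 3199 after culture. Siglech, which marks them, had the largest fall, from 389 ± 46.7 to 11.9 ± 8.67 (SD). Pacsin1 was 4.42-fold and Tcf4 2.05-fold lower, and Ccr9 and Bst2 were not called. For B cells, which express Tlr7 and Tlr9 as well, 1 of 6 markers rose and 2 fell, with overlapping sums of 2629.7 to 4947 and 2588 to 3560.3. Alveolar macrophage markers summed to 17146 to 25791 before and 7405 to 10474 after culture, with 6 of 7 tested lower and 0 higher. Of the 6 markers of type 2 conventional dendritic cells, 2 rose and 3 fell, and the sums overlapped (16555 to 23718 and 15054 to 28072). All markers of endothelium, epithelium and fibroblasts were lower after culture. The 5 endothelial markers summed to 20742 to 30021 before and 3162 to 4102 after culture, the 5 epithelial markers to 20037 to 30645 and 3659.5 to 6174, and the 4 fibroblast markers to 12789 to 22821 and 1869 to 3819. Of the 8 markers of T and NK cells 1 rose and 5 fell, with sums of 4756 to 6368 before and 4008 to 5154 after culture. The part of these cells in the receptor levels was not tested.

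**Figure D4:**
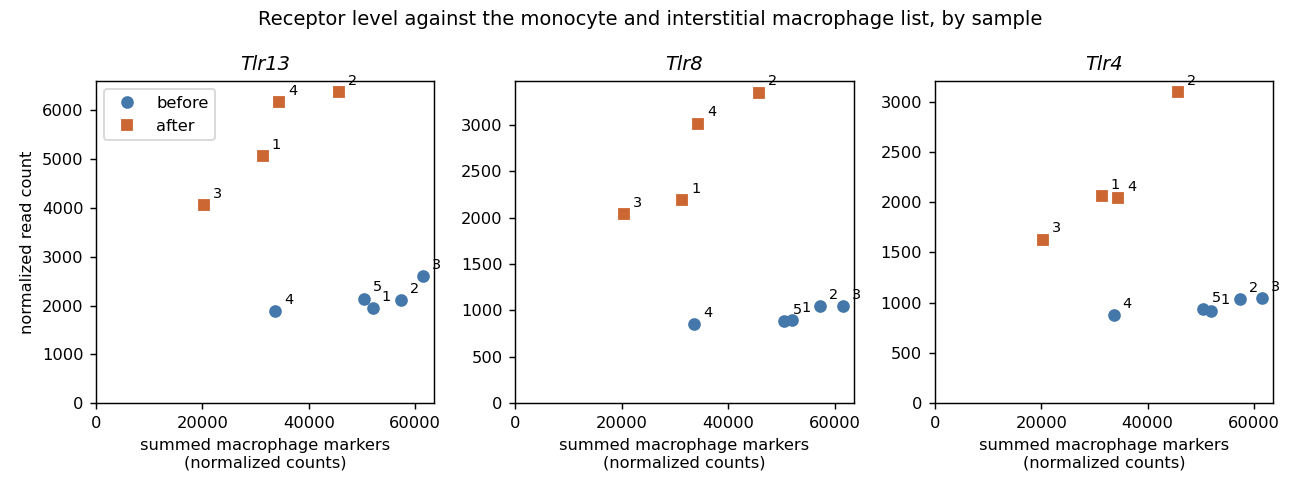
Normalized read count of Tlr13, Tlr8 and Tlr4 (y axes) against the summed normalized count of 10 monocyte and interstitial macrophage markers (x axis, linear from 0), with 1 point per sample labelled by replicate number, before (circles) and after culture (squares). In these 3 receptors the sample with the lowest marker sum in each group has the lowest receptor level. The same holds for Tlr1, which rose, and for Tlr2 and Tlr9, which fell, and these are not drawn. Marker sums span 33604 to 61493 before and 20356 to 45711 after culture, and receptors such as Tlr6, Tlr11 and Tlr12, which are not drawn, had another order of samples. Sums of neutrophil markers and of type 2 conventional dendritic cell markers, not drawn either, were highest and lowest in the same samples as the macrophage sum.

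The genes whose level followed a receptor most closely across all 9 samples were found for Tlr2, Tlr13 and Tlr9, the 3 receptors with the highest length-scaled level averaged over all 9 samples (after culture alone Tlr9 ranked behind Tlr8, Tlr1 and Tlr7 as well). Likeness was the root mean square difference between log2 levels centred on their mean, over 11786 genes with a mean count of at least 100. Nearest to Tlr13 were Atp6v1a, a subunit of the proton pump that acidifies endosomes and lysosomes (0.0699), and Tnfrsf1b, a receptor of tumour necrosis factor (0.0884), against a median of 0.705 over these genes. Nearest to Tlr2 were Plekhg3 (0.105) and Dusp4, a phosphatase of MAP kinases (0.106), against a median of 0.818. Pip5k1c (0.0651) and Use1 (0.0687) were nearest to Tlr9, against a median of 0.582. Between receptors, the closest pair was Tlr8 and Tlr13 (0.125), followed by Tlr7 and Tlr8 (0.153). A likeness of this kind holds mainly the difference between the 2 groups, so genes with a like change come out near.

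Of 73 tested genes on 6 lists of the Toll-like receptor pathway, 30 were higher, 22 lower and 21 not called. The share called, 71.2%, was close to the 68.8% of all tested genes, with 41.1% higher and 30.1% lower against 34.2% and 34.6%, so the count is no result about the pathway, and what follows describes its single genes. Of the 11 co-receptors and chaperones, 4 were higher, 4 lower and 3 not called (72.7% called, against 68.8% of all tested genes), with a median log2 fold change of −0.20. The partners of Tlr4 moved apart. Cd14, which hands lipopolysaccharide to Tlr4, went from 15958 ± 3711 to 1370.1 ± 673 normalized counts (SD, n = 5 and n = 4), 11.6-fold lower (log2 fold change −3.65, limma adjusted p = 1e-07), and Lbp, which delivers lipopolysaccharide to Cd14, was 14.2-fold lower. Ly96, which Tlr4 needs to bind its ligand, went from 90.4 ± 22.9 to 378 ± 57.5, 4.18-fold higher (log2 fold change 2.07, limma adjusted p = 2.95e-07). Neutrophils and monocytes also express Cd14, and their markers are given above.

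Cd36, a scavenger receptor that assists Tlr2 and Tlr6, was 2.83-fold higher, and Ly86 (MD-1), the partner of the Tlr4-like protein Cd180, 2.83-fold lower. Cnpy3, a chaperone of several receptors, rose 1.59-fold, and Hsp90b1 (gp96), the endoplasmic reticulum chaperone of the family, was 1.33-fold higher with overlapping groups (log2 fold change 0.39, limma adjusted p = 0.0120). Unc93b1, which carries all 6 endosomal receptors to their compartment, did not pass the test (9102 ± 1117 before against 7732 ± 2016 after culture, limma adjusted p = 0.152).

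Endosomal receptors are cut by proteases before they signal. A list of 10 tested genes covered these proteases and transporters and partners in that compartment. Of these genes, 6 were higher, 2 lower and 2 not called (median 0.54). This is read against the 68.8% of all tested genes that were called, 34.2% higher and 34.6% lower, and the difference was not tested. Ctsl was 5.02-fold, Ctsk 3.16-fold and Ctsb 2.81-fold higher, all 3 being lysosomal cathepsins that macrophages also hold. Ctsl went from 2319 ± 541 to 11654 ± 6076 (SD), with a wide spread after culture. Ap3b1, a subunit of the adaptor complex that sorts endosomal receptors, was 1.45-fold higher. Tasl and Slc15a3 were lower. Tasl, which links endosomal receptors to Irf5, was 1.69-fold lower (log2 fold change −0.79, limma adjusted p = 0.000614).

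Of the 22 adaptors and receptor-proximal kinases, 13 were higher, 3 lower and 6 not called (72.7% called, median 0.24). Those lower were Myd88, Irak2 and Pik3ap1. Myd88, the adaptor of every receptor in this set, went from 3729 ± 414 to 1475 ± 347 normalized counts (SD, n = 5 and n = 4), 2.53-fold lower (log2 fold change −1.36, limma adjusted p = 1.17e-06). Irak2, a kinase-like protein of the Myd88 complex, was 1.78-fold lower, and Pik3ap1 (BCAP), an adaptor to phosphoinositide 3-kinase, 2.19-fold lower. Ticam1 (TRIF), the adaptor of Tlr4 in endosomes and of Tlr3, was 1.24-fold higher with overlapping groups (log2 fold change 0.31, limma adjusted p = 0.00757).

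Further along the pathway, Traf6 and Traf3, the ubiquitin ligases to which receptor signals run, were 1.84-fold and 1.9-fold higher. Ikbkg (NEMO), the regulatory subunit of the IκB kinase, had the largest rise on the list, from 677 ± 64.8 to 2442 ± 190.1 (log2 fold change 1.85, limma adjusted p = 6.83e-10). Tirap, which bridges Tlr2 and Tlr4 to Myd88, was 1.65-fold and Tbk1, a kinase that activates Irf3, 1.59-fold higher. Of 4 interferon regulatory factors 1 was called (25.0%, against 68.8% of all tested genes). Irf5 was 1.23-fold lower, and Irf1, Irf3 and Irf7 were not called.

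Of 15 inhibitors of the pathway, 6 were higher, 3 lower and 6 not called (median 0.18), and their share called, 60.0%, was below the 68.8% of all tested genes. Tnfaip3 (A20), which removes ubiquitin chains, went from 32369 ± 1912 to 6264 ± 336 (SD), 5.17-fold lower (log2 fold change −2.37, limma adjusted p = 1.75e-11). Nlrx1 was 2.1-fold and Dok3 2.02-fold lower. Pirb, an inhibitory receptor, was 2.44-fold higher, and Irak3 (IRAK-M), which restrains the kinases of this family, 2.03-fold higher (562 ± 62.6 before against 1141 ± 194 after culture).

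Genes that Toll-like receptor signals are known to induce were mostly lower after culture. Of 11 tested, 9 were lower, 1 was higher and 1 (Il12b) was not called (90.9% called, 34.6% of all tested genes being lower), with a median of −1.79 against 0.0065 for all tested genes. Ccl4 was 26.8-fold, Cxcl2 20-fold, Nfkbiz 10.8-fold and Il1b 5.88-fold lower. Il1b, which encodes interleukin 1β, went from 22902 ± 3456 to 3895 ± 851 normalized counts (SD, n = 5 and n = 4), and neutrophils and monocytes, whose markers are given above, also express it. Tnf was 2.59-fold, Ptgs2 (cyclooxygenase 2) 3.92-fold and Il6 1.61-fold lower. Marcksl1 was the gene called higher (1.89-fold). Ifnb1, which encodes interferon β, was below the minimum level and not tested. Many other signals induce these genes too, and the state of the receptors themselves was not measured.

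**Figure D5:**
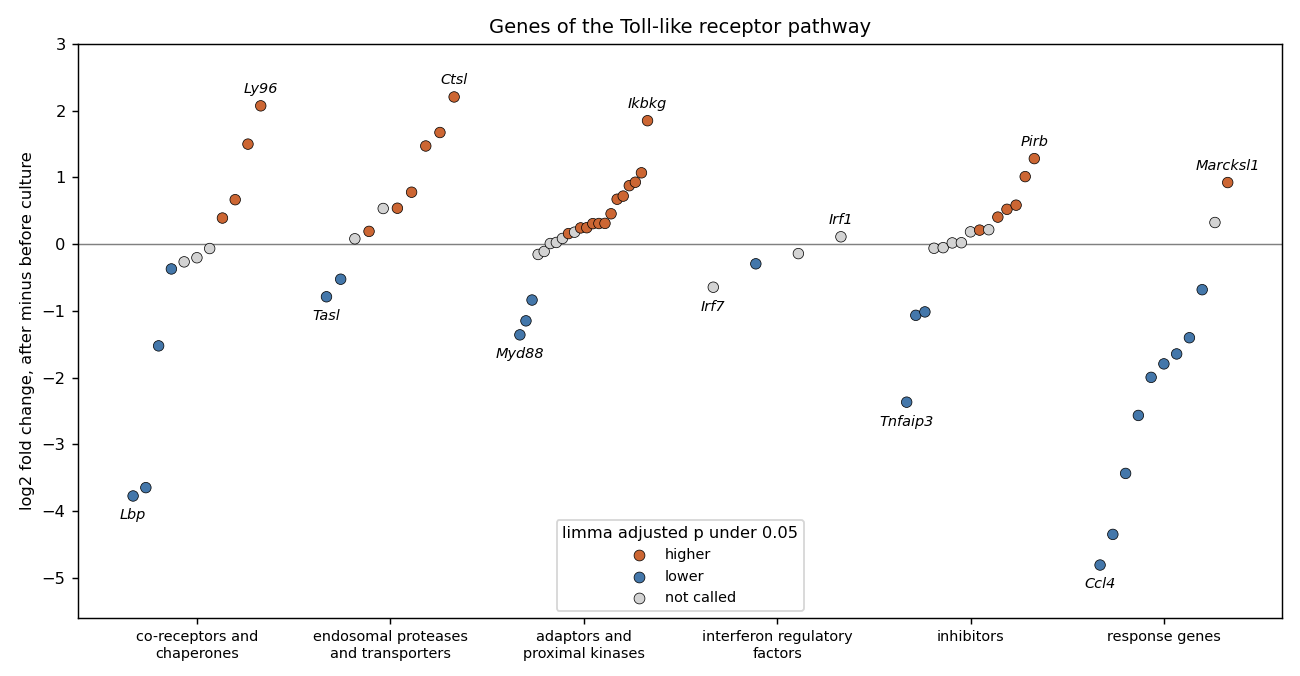
Log2 fold change, after minus before culture, of 73 tested genes of the Toll-like receptor pathway in 6 lists (x axis), coloured by call at a limma adjusted p under 0.05. The lowest and highest gene of each list is named, and among the response genes 9 of 11 are lower.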

How the data were processed

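RNA of CD103+ lung DCs was sequenced in 5 samples before and 4 after culture, and samples were grouped by their titles. The authors deposited a gene table of normalized read counts (a non-negative signal), and the submitters' processing notes name DESeq2 and GRCm38. The aligner, counter, annotation, strandedness and filters are not given in the sources used here. All values (100%) were multiples, within 1e-06, of the value of a single read in that sample, so whole reads were recovered. The 3782 rows without a symbol, 3.87 to 10.9% of reads, were left out. Depth was 14.7 to 35.3 M reads, so counting error is small for all receptors, and molecular identifiers are not mentioned in the sources used here.

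Genes with a mean of at least 10 were tested with limma 3.58.1 in R 4.3.3 on log2(value + 1), with a pseudocount of 1 (group as the only term, mean-variance trend, two-sided, Benjamini-Hochberg over all tested genes). This scale understates changes of low genes. Alternatives were pseudocounts, filters, TMM and quantile scaling, count models on the recovered reads (edgeR 4.0.16 and DESeq2 1.42.0, which called 12562 and 12663 genes against 12524), replicate blocks, a GC content and length correction, and leaving out each sample. Scripts were tested on simulated data. The receptors and gene lists were chosen with earlier results of these data known. All 10 receptors are named. Of each list, genes named are up to 4 with the smallest adjusted p, those called against the list's median and 8 fixed by name (Unc93b1, Cd14, Ly96, Myd88, Ticam1, Irak2, Irak3 and Tnfaip3). For the 3 receptors with the highest length-scaled level averaged over all 9 samples (Tlr2, Tlr13 and Tlr9), the 2 most alike genes are named. Genes named outside this rule (flanking genes, single markers, Tirap, Tbk1, Tnf, Ptgs2, Il6 and the interferon regulatory factors that were not called) were chosen after their values were seen. Lilrb3 was matched as Pirb, its RefSeq synonym. Lengths, positions and shared windows come from GENCODE M21 (GRCm38), promoters from RefSeq (GRCm38.p6).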

Additional observations from a re-analysis of the deposited data

How the results depend on the processing

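The 10 receptors kept their direction and their call under all 20 alternatives, which gave 6 higher and 4 lower each time. Leaving out 1 sample gave log2 fold changes from 0.98 to 1.29 for Tlr4, the receptor with the lowest limit among those that rose, and from −1.04 to −0.94 for Tlr9. The count of all genes called ran from 11766 to 12691 when a sample was left out, and was 9925 of 13551 with a minimum mean of 50 and 14150 of 31592 with no filter. The pathway lists held 28 to 37 higher and 20 to 24 lower genes over all alternatives. Quantile scaling moved the median of all genes by 0.14 and the correction for GC content and length by 0.12 (log2). It is not stated whether sample numbers mark pairs. With the replicate block by title number 11656 genes were called, and with that by library number 12865, each on 8 samples. Without a block 12524 were called on all 9 samples, and all 10 receptors were called each time. Deviations of same-numbered samples correlated at −0.213 to 0.081 by title and 0.045 to 0.349 by library number, where 7 of 8 samples correlated best with their own number, a hint from the data only.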
